A study of Homo sapiens with 14 samples.

Results

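Amino acid transporter genes were followed in MOLM14 cells, an established human line of acute myeloid leukaemia that carries an internal tandem duplication in the receptor kinase FLT3, while the cells met gilteritinib, an inhibitor of FLT3 and AXL. The genes were taken by name, as protein-coding genes of the solute carrier (SLC) families SLC1A, SLC3A, SLC6A, SLC7A, SLC36A, SLC38A and SLC43A. The rule found 59 of 39293 gene identifiers. SLC7A6OS, named for lying opposite SLC7A6 and not a carrier, was set aside, which left 58 members, with 7 in SLC1A, 2 in SLC3A, 19 in SLC6A, 13 in SLC7A, 4 in SLC36A, 10 in SLC38A and 3 in SLC43A. SLC38A3 was not analysed here.

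The 14 RNA-seq libraries fell into 4 arms. FGF2 early cells came from 4 flasks of early resistant cells supplied with the growth factor FGF2 at 10 ng/mL, and FL early cells from 4 flasks supplied with FL, the ligand of FLT3, at 10 ng/mL. Both early arms were treated with 100 nM gilteritinib for 48 hours before RNA was taken. The acute arm held parental cells under the same drug treatment, in 1 library without ligand, 1 with FGF2 and 1 with FL, both ligands at 10 ng/mL. The parental arm held 3 libraries of untreated cells. All arms derive from 1 cell line, and nothing states that the parental libraries were separate cultures or the flasks separate selections, so p-values may measure only technical spread. Early and parental cells differ in drug, ligand and selection together, which cannot be told apart. Early and acute cells were both under drug but differ in selection and partly in ligand, which 1 acute library lacked, and these cannot be told apart either. In bulk RNA, fewer cells with a transcript and less transcript per cell cannot be told apart either.

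Mammalian cells cannot make the essential amino acids and take them up through membrane carriers. LAT1, the product of SLC7A5, works only when joined to the heavy chain 4F2hc, the product of SLC3A2, and brings in leucine and other large neutral amino acids in exchange for glutamine. Glutamine enters through carriers such as ASCT2, the product of SLC1A5, and through sodium-coupled SLC38 carriers, while cystine enters through xCT, the product of SLC7A11, and arginine through the cationic carriers of SLC7A1 and SLC7A2. Leucine and arginine activate the growth kinase mTORC1, and a shortage of amino acids activates the transcription factor ATF4, which raises many carrier genes.

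Total estimated counts ran between 25723575 and 33075041 per library, and the members took 0.125% to 0.131% of them in acute libraries, against 0.233% to 0.275% in early and 0.265% to 0.282% in parental libraries. Of 10 genes expected in MOLM14 cells, 9 were at 1 CPM (counts scaled to a common depth) or more in every library and CD14 was below 1 CPM in every library. Erythroid markers were listed at 0, and the summed markers of T cells, B cells, megakaryocytes and epithelium did not pass 1.39 CPM in any library. Fibroblast markers summed to between 0.274 and 3.16 CPM. The summed MOLM14 markers moved with the arms, at 926 to 980 CPM in FGF2 early, 1360 to 2207 CPM in FL early, 1554 to 1750 CPM in acute and 1008 to 1010 CPM in parental libraries. The part of this in the transporter results was not tested.

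Of the 58 members, 31 were expressed, meaning that they passed the filter on low counts, and 21 of these averaged at least 8 CPM. The other 27 stayed at or below 0.640 CPM in every library, and 9 of them were listed at 0 throughout, among them SLC1A1, SLC6A5, SLC6A7, SLC6A14, SLC6A15, SLC7A3, SLC7A4 and SLC38A4. The remaining 18 were SLC36A2 (highest value 0.640 CPM), SLC6A11 (0.565), SLC6A12 (0.462), SLC3A1 (0.459), SLC7A8 (0.385), SLC7A10 (0.308), SLC6A13 (0.295) and SLC36A3 (0.231), and, at or below 0.189 CPM, SLC1A2, SLC1A7, SLC6A2, SLC6A3, SLC6A17, SLC6A18, SLC6A19, SLC7A13, SLC38A8 and SLC38A11. SLC3A1 is the heavy chain of the kidney cystine carrier, so SLC3A2 was the only heavy chain gene expressed.

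Per kilobase of transcript, the most abundant carrier mRNA in parental cells was SLC1A5 at 128 CPM per kb, followed by SLC7A5 at 114 (range 105 to 128), SLC3A2 at 109 (107 to 113), SLC43A3 at 62.4 (61.9 to 63.3) and SLC38A10 at 61.4 (54.9 to 71.5). SLC1A5 ranged between 126.7 and 130.7 CPM per kb, which overlapped SLC7A5 at its upper end of 127.6. The ranges of SLC7A5 and SLC3A2 overlapped as well, as did those of SLC43A3 and SLC38A10. By mean, early cells kept SLC1A5 in first place, at 107 CPM per kb with FGF2 and 101 CPM per kb with FL. Its range overlapped that of SLC38A10 in both early arms. With FGF2 the ranges were 99.0 to 111.5 and 78.5 to 100.9 CPM per kb, and with FL 94.3 to 107.5 and 85.6 to 105.4. In acute cells the order was different. SLC38A10, an SLC38 member, led with 80.3 CPM per kb, followed by SLC3A2 at 42.9, SLC1A5 at 39.5, SLC1A4 at 23.3 and SLC43A3 at 19.7, with SLC7A5 in place 6 at 19.5 CPM per kb. The acute ranges of SLC3A2 and SLC1A5 overlapped, as did those of SLC1A4, SLC43A3 and SLC7A5, so the order within these groups is not settled.

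**Figure D1:**
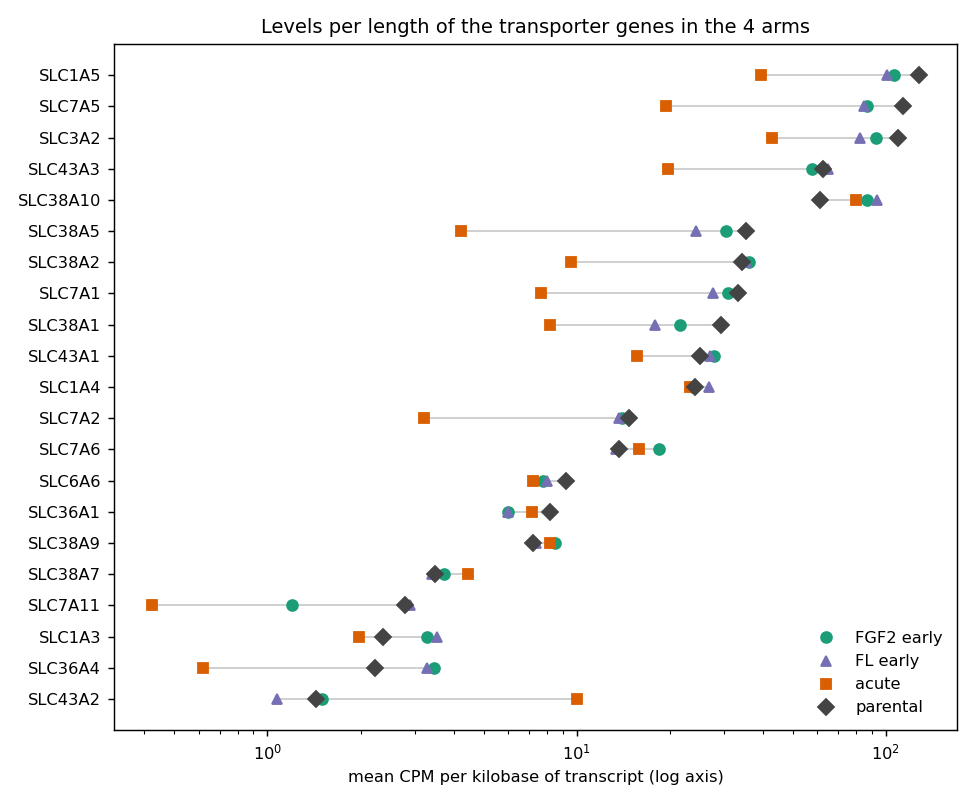
Mean level of each transporter gene with at least 8 CPM on average, as CPM per kilobase of transcript on a log axis, with 1 marker for each arm. Acute markers lie far left of the others for SLC7A5 (19.5 against 114 in parental cells) and SLC38A5, and far right for SLC43A2.

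Most members with at least 8 CPM were lower in acute than in parental cells and higher in early than in acute cells. Of these 21, 13 were higher and 2 lower in early than in acute cells, and 3 were higher and 13 lower in acute than in parental cells. Of the 31 expressed members, 14 were higher and 5 lower in early than in acute cells, where 32.1% and 33.9% of all 15756 genes tested were called (edgeR's quasi-likelihood test, Benjamini-Hochberg adjusted p below 0.05). The median log2 fold change of the members was 0.29, against −0.04 over all genes. In acute against parental cells, 5 members were higher and 14 lower, against 32.3% and 30.3% of all genes. The median was −0.27 for the members and 0.07 for all genes. Between early and parental cells, 2 members were higher and 7 lower, against 13.7% and 16.1% of all genes, with medians of −0.04 and 0.01. These 3 comparisons share arms, so their counts are not independent of each other. The counts over the 31 include calls of SLC6A9, SLC6A16, SLC7A9 and SLC1A6, which averaged 1.66 CPM or less. For SLC6A9, SLC6A16 and SLC7A9 the filter on low counts limits what the calls mean, as given below. The counts over the 21 leave these members out. The cut at 8 CPM is a mean over all 14 libraries, most of them early or parental, so it favours genes high in those arms. SLC7A11 and SLC36A4, at acute means of 4.08 and 3.71 CPM, passed it through the other arms. No share over all genes was taken at this cut, so the counts over the 21 have no background. The count of 5 higher in acute cells fell to 3 without FGF2 early replicate 2, parental replicate 1 or parental replicate 2. The early against parental counts of 2 and 7 became 1 and 4 without parental replicate 1, and the 2 became 1 without parental replicate 2.

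**Figure D2:**
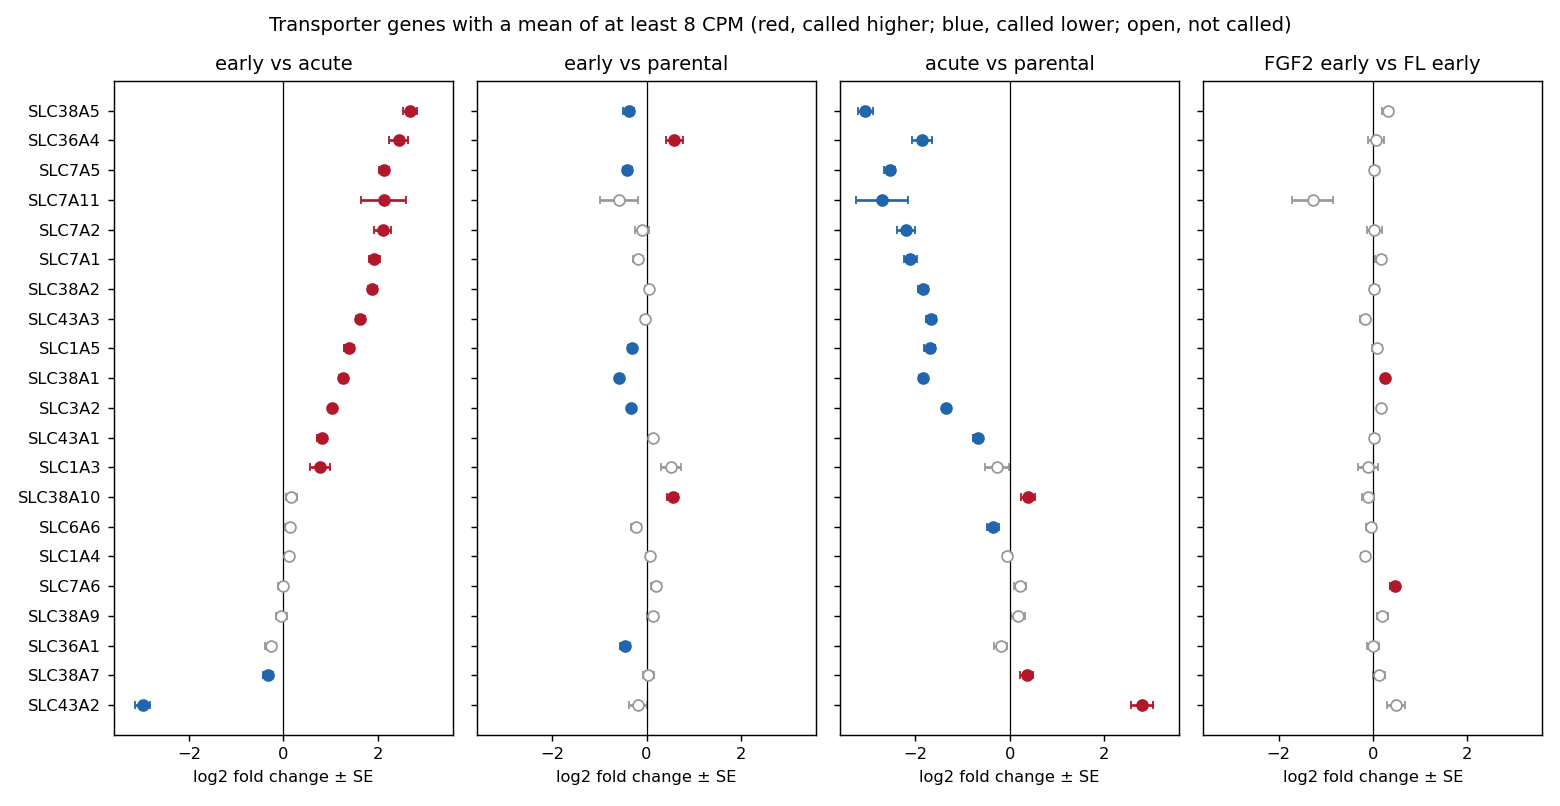
Log2 fold change with its standard error for the 21 members with a mean of at least 8 CPM in each of the 4 comparisons, ordered by early vs acute. SLC38A5 stands at the top with 2.69 and SLC43A2 at the bottom with −2.99 in early vs acute, while in early vs parental every fold change lies between −0.58 and 0.59.

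For the heterodimer of LAT1 and 4F2hc, the mRNA of both genes was measured, and neither the proteins nor the complex was. SLC7A5 (ENSG00000103257) stood at 428, 437, 342 and 374 CPM in FGF2 early flasks, at 375, 387, 407 and 376 CPM in FL early flasks, at 77.2, 97.9 and 90.6 CPM in acute libraries without ligand, with FGF2 and with FL, and at 476, 497 and 579 CPM in parental libraries. Every acute library was below every early flask, and every early flask was below every parental library. The mean in early cells was 391 ± 31.4 CPM (SD, n = 8), against 88.6 ± 10.5 CPM (n = 3) in acute cells. The log2 fold change was 2.14 ± 0.10 (SE; edgeR adjusted p = 4.54e-10). Against the parental mean of 517 ± 54.5 CPM (n = 3), the log2 fold change was −0.41 ± 0.09 in early cells (edgeR adjusted p = 0.00389) and −2.55 ± 0.11 in acute cells (edgeR adjusted p = 2.58e-10). Near copies of this gene, SLC7A5P1 and SLC7A5P2, stayed at or below 2.01 CPM and 0.616 CPM, and reads could have passed between them and SLC7A5.

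SLC3A2 (ENSG00000168003) moved the same way over a smaller range. It had 200, 196, 205 and 201 CPM with FGF2, 173, 175, 174 and 194 CPM with FL, 91.1, 95.5 and 91.5 CPM in acute libraries, and 230, 234 and 245 CPM in parental libraries. The arms did not overlap, with acute lowest and parental highest. Its log2 fold change was 1.03 ± 0.05 in early against acute cells (edgeR adjusted p = 9.70e-10), −0.32 ± 0.05 in early against parental cells (edgeR adjusted p = 0.000433) and −1.35 ± 0.06 in acute against parental cells (edgeR adjusted p = 2.84e-10).

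The light chain gene stood further from the early and parental levels in acute cells than the heavy chain gene did. Per kilobase, SLC7A5 over SLC3A2 was 0.986 ± 0.107 in early cells (SD, n = 8), against 0.455 ± 0.0448 in acute cells (n = 3) and 1.04 ± 0.0767 in parental cells (n = 3). The difference between early and acute cells had a two-sided exact permutation p of 0.0121, the smallest this design allows, and 0.0485 after adjustment over 8 such tests. The permutation treats libraries of different ligand states as alike. The ratio also follows from the log2 fold changes given above, 2.14 for SLC7A5 and 1.03 for SLC3A2, and is no independent result. Early and parental cells gave an exact permutation p of 0.473, and acute against parental cells cannot go below 0.10. Among the 4 expressed light chain genes that pair with SLC3A2, namely SLC7A5, SLC7A6, SLC7A7 and SLC7A11, SLC7A5 made up 78.1% to 81.9% of the per-kilobase level with FGF2 and 80.4% to 83.7% with FL, against 48.6% to 56.1% in acute and 84.8% to 87.8% in parental libraries.

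**Figure D3:**
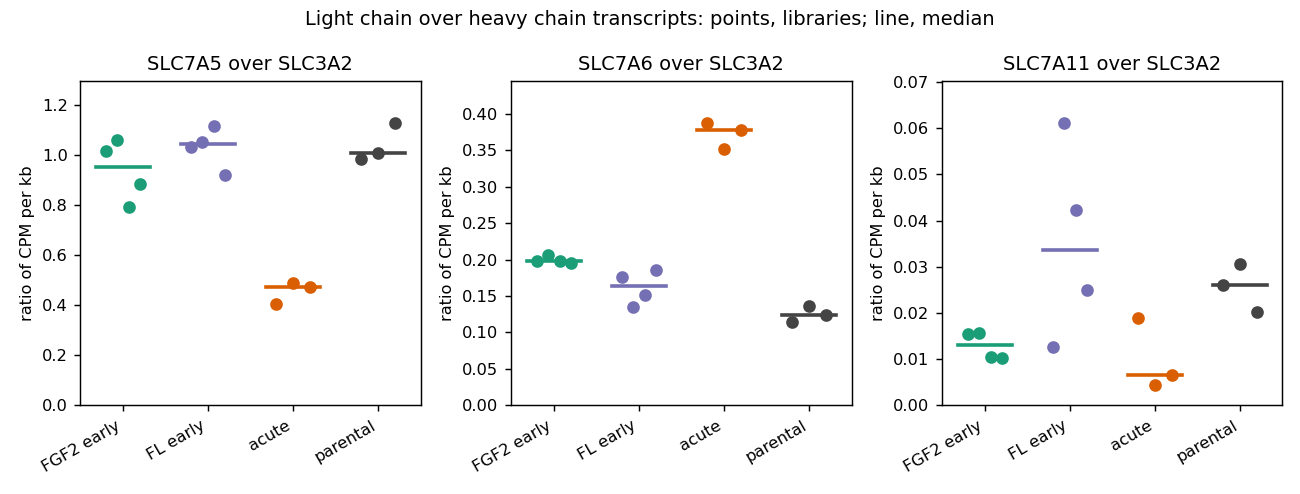
Ratio of the per-kilobase level of 3 light chain genes to that of the heavy chain gene SLC3A2 in each library, with the arm's median as a line. SLC7A5 over SLC3A2 lies at 0.404 to 0.488 in acute libraries and at or above 0.795 in all others, and SLC7A6 over SLC3A2 lies at 0.352 to 0.387 in acute libraries and at or below 0.207 in all others.

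SLC7A6, the gene of y+LAT2, an exchanger of cationic for neutral amino acids, was the next most abundant light chain gene. It had 116, 118, 118 and 115 CPM in FGF2 early flasks, 89.0, 68.6, 76.7 and 105 CPM in FL early flasks, 103, 98.0 and 101 CPM in acute libraries, and 76.9, 93.0 and 88.6 CPM in parental libraries. Its log2 fold change did not pass the test in early against acute cells (−0.02 ± 0.10, edgeR adjusted p = 0.896) or in acute against parental cells (0.22 ± 0.12, edgeR adjusted p = 0.124). SLC7A6 over SLC3A2 per kilobase was 0.181 ± 0.0255 in early, against 0.372 ± 0.0186 in acute and 0.125 ± 0.0107 in parental cells. For early against acute cells the exact permutation p was 0.0121, the smallest possible, and 0.0485 adjusted over the 8 tests. Since SLC7A6 itself was not called there and SLC3A2 was, this ratio restates the difference in SLC3A2 and is no separate result on SLC7A6. SLC7A6 overlaps SLC7A6OS on the other strand, and whether the counting used strand is not stated, so reads of the overlap cannot be told apart. SLC7A7, which encodes y+LAT1, was low in every library (2.10 to 4.59 CPM) and was called in no comparison.

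SLC7A11 (ENSG00000151012), which encodes the cystine and glutamate exchanger xCT, varied most among the members with at least 8 CPM, with a ratio of 25.2 between its highest and lowest library. It had 13.8, 13.7, 9.58 and 9.14 CPM in FGF2 early flasks, 9.74, 47.6, 32.7 and 21.6 CPM in FL early flasks, 7.71, 1.89 and 2.66 CPM in acute libraries without ligand, with FGF2 and with FL, and 26.7, 31.9 and 22.1 CPM in parental libraries. FL early replicates 2 and 3 were above the parental range, while FL early replicate 1 lay within the FGF2 early range. Early against acute cells gave 2.13 ± 0.48 (edgeR adjusted p = 0.00147), and acute against parental cells gave −2.71 ± 0.54 (edgeR adjusted p = 0.000604). With the acute library without ligand as the only acute sample, the early against acute value was 1.25 and the adjusted p 0.119, the lone sample being assumed to vary like the other arms. Early against parental cells did not pass the test (−0.58 ± 0.40, edgeR adjusted p = 0.296).

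Carriers of neutral amino acids in the SLC1A family behaved differently from each other. SLC1A5 (ENSG00000105281), the gene of the glutamine exchanger ASCT2, had 321, 316, 285 and 307 CPM with FGF2, 272, 282, 296 and 310 CPM with FL, 88.3, 135 and 118 CPM in acute libraries, and 366, 365 and 377 CPM in parental libraries. Acute libraries were lowest and parental libraries highest, without overlap. The log2 fold change was 1.39 ± 0.10 in early against acute cells (edgeR adjusted p = 3.59e-08) and −1.70 ± 0.12 in acute against parental cells (edgeR adjusted p = 2.13e-08). The early against parental value of −0.31 ± 0.09 passed the test (edgeR adjusted p = 0.0236) and lost the call when any parental library was left out, with adjusted p between 0.0761 and 0.0799.

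Its relative SLC1A4, the gene of the alanine, serine and cysteine carrier ASCT1, averaged 115 ± 9.90 CPM in early (n = 8), 106 ± 14.6 CPM in acute (n = 3) and 110 ± 3.56 CPM in parental cells (n = 3), and was called in no comparison. SLC1A3, a glutamate and aspartate carrier, averaged 14.2 ± 2.79 CPM in early cells, against 8.26 ± 2.58 CPM in acute cells (log2 fold change 0.78 ± 0.22, edgeR adjusted p = 0.00572), and 9.87 ± 1.82 CPM in parental cells, from which neither arm differed at the threshold. SLC1A6, another glutamate carrier, was expressed at 0.931 to 2.43 CPM.

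The cationic carrier genes SLC7A1 and SLC7A2 were low in acute cells, and neither differed from the parental level at the threshold in early cells. SLC7A1 (ENSG00000139514), which encodes CAT1, the main route of arginine and lysine into many cells, had 234, 239, 217 and 221 CPM with FGF2, 199, 207, 206 and 201 CPM with FL, 40.5, 68.1 and 60.8 CPM in acute libraries, and 243, 236 and 253 CPM in parental libraries. Acute libraries lay far below all others, and the highest FGF2 early flask overlapped the parental range. The log2 fold change was 1.93 ± 0.12 in early against acute cells (edgeR adjusted p = 7.38e-09), −2.11 ± 0.14 in acute against parental cells (edgeR adjusted p = 1.06e-08) and −0.18 ± 0.11 in early against parental cells (edgeR adjusted p = 0.217). The last value passed the test without acute replicate 1 (adjusted p = 0.0129) and with only the arms compared in the fit (0.0117).

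SLC7A2 (ENSG00000003989), the gene of CAT2, had 101, 115, 99.2 and 112 CPM with FGF2, 78.6, 122, 120 and 96.7 CPM with FL, 17.4, 32.1 and 24.3 CPM in acute libraries, and 117, 113 and 109 CPM in parental libraries. Only the acute arm stood apart. Its log2 fold change was 2.10 ± 0.18 in early against acute cells (edgeR adjusted p = 1.24e-07), −2.20 ± 0.20 in acute against parental cells (edgeR adjusted p = 2.72e-07) and −0.09 ± 0.15 in early against parental cells (edgeR adjusted p = 0.677). SLC7A14, a relative found in lysosomes, was expressed at 0.372 to 1.17 CPM and was called in no comparison.

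**Figure D4:**
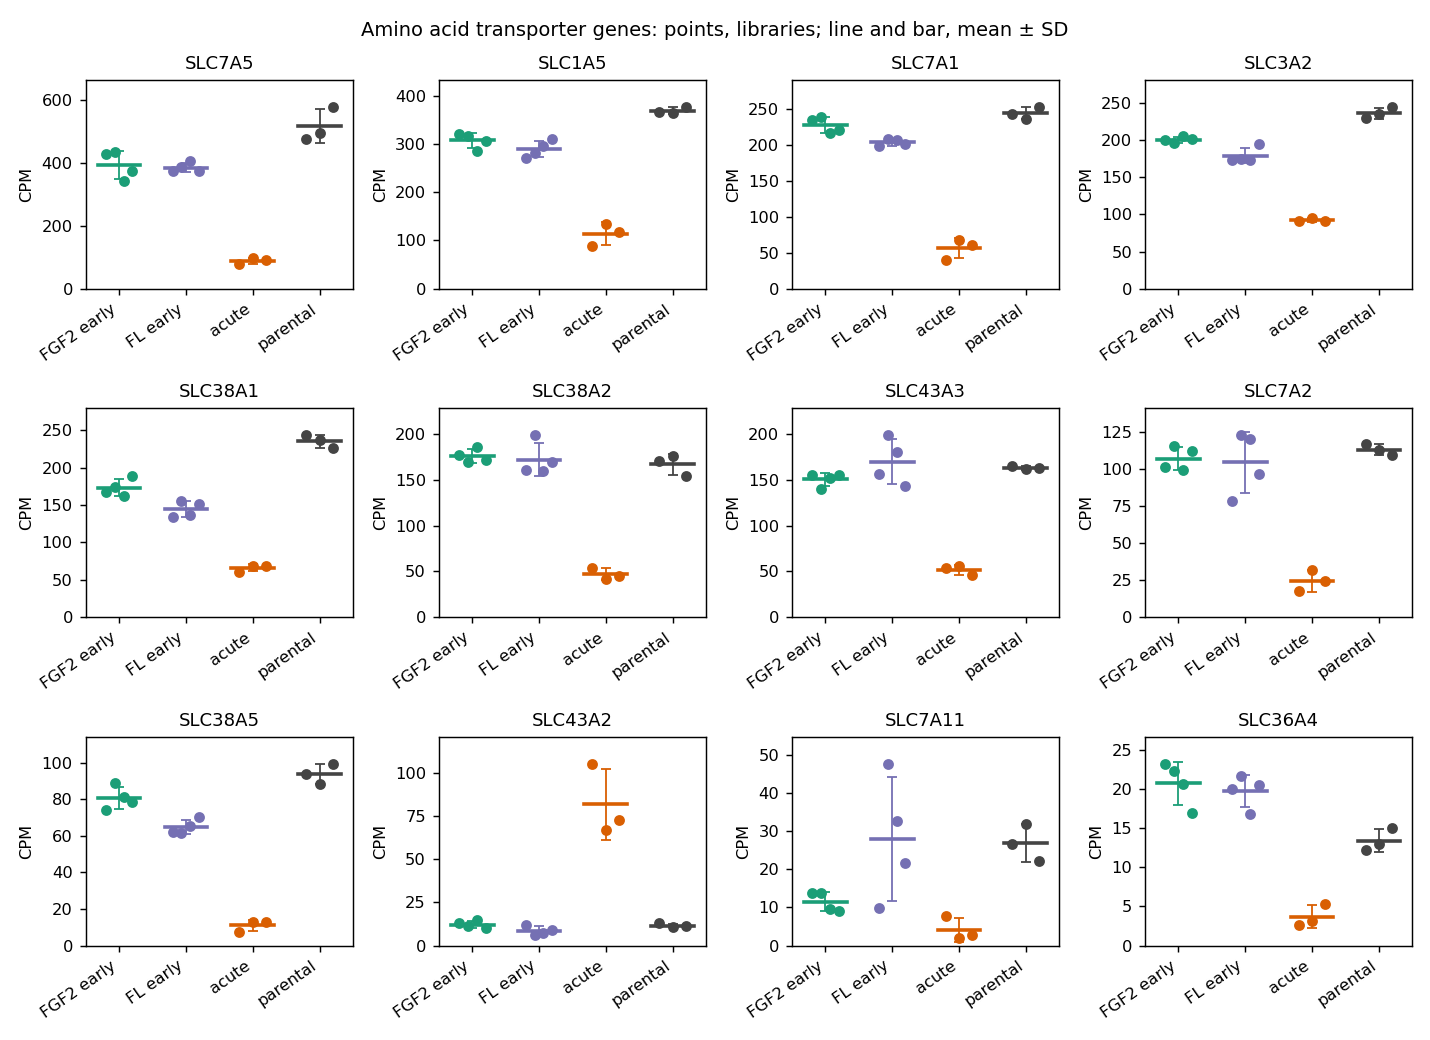
CPM of the 12 members given in full, 1 point for each library, with the arm's mean as a line and its SD as a bar; each axis starts at 0. For 11 of the 12 the acute points lie below the early and parental ones, and SLC43A2 has the opposite pattern, at 67.2 to 105 CPM in acute libraries and at or below 14.9 CPM in all others.

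Among the 7 expressed SLC38 carriers, SLC38A1, SLC38A2 and SLC38A5 rose in early over acute cells, SLC38A7 was lower, and the other 3 were not called. SLC38A1 (ENSG00000111371), the gene of the glutamine carrier SNAT1, had 167, 175, 163 and 189 CPM with FGF2, 134, 156, 137 and 151 CPM with FL, 60.4, 68.8 and 68.9 CPM in acute libraries, and 243, 238 and 226 CPM in parental libraries. No early flask reached the parental range, and no acute library reached the early range. The log2 fold change was 1.26 ± 0.07 in early against acute (edgeR adjusted p = 3.05e-09), −1.84 ± 0.08 in acute against parental (edgeR adjusted p = 3.10e-10) and −0.57 ± 0.07 in early against parental cells (edgeR adjusted p = 4.65e-05).

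SLC38A2 (ENSG00000134294) encodes SNAT2, a carrier that cells raise when amino acids run short. It had 177, 169, 186 and 172 CPM with FGF2, 161, 199, 160 and 170 CPM with FL, 54.2, 41.2 and 45.4 CPM in acute libraries, and 171, 176 and 154 CPM in parental libraries. Early flasks and parental libraries overlapped, and the acute libraries lay below both. Early against acute cells gave 1.89 ± 0.10 (edgeR adjusted p = 9.06e-10), acute against parental cells −1.83 ± 0.11 (edgeR adjusted p = 4.18e-09), and early against parental cells 0.06 ± 0.09 (edgeR adjusted p = 0.643).

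SLC38A5 (ENSG00000017483), which encodes the glutamine and histidine carrier SNAT5, had the largest fold change between early and acute cells among the members with at least 8 CPM that were higher in early cells. It had 74.3, 88.9, 81.0 and 78.3 CPM with FGF2, 62.3, 61.5, 65.6 and 70.3 CPM with FL, 7.67, 13.0 and 12.9 CPM in acute libraries, and 93.8, 88.4 and 99.4 CPM in parental libraries. A single flask, FGF2 early replicate 2, overlapped the parental range. The log2 fold change was 2.69 ± 0.14 in early against acute (edgeR adjusted p = 1.32e-09) and −3.07 ± 0.16 in acute against parental cells (edgeR adjusted p = 1.10e-09). The value of −0.38 ± 0.12 in early against parental cells (edgeR adjusted p = 0.0257) lost its call without FGF2 early replicate 1 (adjusted p = 0.0505) or without any parental library (0.0586 to 0.103).

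SLC38A10 was called higher than in parental cells in both early and acute cells, the acute call being lost under several alternatives. It averaged 244 ± 26.7 CPM in early (n = 8) and 217 ± 37.4 CPM in acute cells (n = 3), against 166 ± 24.2 CPM in parental cells (n = 3), with log2 fold changes of 0.55 ± 0.12 (edgeR adjusted p = 0.00380) and 0.39 ± 0.14 (edgeR adjusted p = 0.0256). The acute call was lost without FGF2 early replicate 2, without parental replicate 1 or 2, and without acute replicate 2 or 3, with adjusted p between 0.0503 and 0.147, and with only the arms compared in the fit (0.0597). The acute library without ligand, at 181 CPM, lay inside the parental range of 149 to 194 CPM, and as the only acute sample it gave 0.0968 (adjusted p = 0.664). SLC38A7, a lysosomal glutamine carrier, averaged 16.2 ± 1.31 CPM in early, 20.3 ± 3.32 CPM in acute and 15.8 ± 2.58 CPM in parental cells. Its calls, −0.32 in early against acute (edgeR adjusted p = 0.0206) and 0.36 in acute against parental (edgeR adjusted p = 0.0357), were both lost without acute replicate 2 (0.215 and 0.201), without FGF2 early replicate 2 (0.0576 and 0.0673), without FL early replicate 1 (0.0532 and 0.0604), with the acute library without ligand alone (0.188 and 0.174) and with no filter on low counts (0.0508 and 0.0801). The second was lost as well without FGF2 early replicate 1, parental replicate 2 or acute replicate 1 and with only the arms compared, with adjusted p between 0.0529 and 0.184. SLC38A9, the lysosomal arginine sensor of mTORC1, averaged 23.2 ± 3.17 CPM in early, 23.9 ± 4.14 CPM in acute and 21.1 ± 0.900 CPM in parental cells and was not called, nor was SLC38A6, at 3.73 to 6.08 CPM.

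The SLC43 family split. SLC43A2 (ENSG00000167703) encodes LAT4, a facilitator through which neutral amino acids such as leucine leave or enter cells without exchange. It had 13.0, 11.1, 14.9 and 9.98 CPM with FGF2, 11.9, 6.15, 7.48 and 9.27 CPM with FL, 105, 67.2 and 73.1 CPM in acute libraries without ligand, with FGF2 and with FL, and 12.8, 10.7 and 11.4 CPM in parental libraries. The acute libraries stood far above all others, and early flasks spanned the parental range. Early cells averaged 10.5 ± 2.86 CPM (n = 8), against 81.8 ± 20.5 CPM in acute cells (n = 3), and the log2 fold change was −2.99 ± 0.17 (edgeR adjusted p = 2.37e-09). Acute against parental cells gave 2.81 ± 0.23 (edgeR adjusted p = 1.38e-07), and early against parental cells −0.18 ± 0.19 (edgeR adjusted p = 0.510).

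SLC43A3 (ENSG00000134802), which belongs to this family by sequence and is known to carry purine nucleobases, went the other way in acute cells. It had 155, 140, 153 and 156 CPM with FGF2, 157, 199, 181 and 144 CPM with FL, 53.5, 55.7 and 45.7 CPM in acute libraries, and 166, 162 and 163 CPM in parental libraries. Acute libraries were lowest, and early flasks lay on both sides of the parental values. The log2 fold change was 1.63 ± 0.10 in early against acute (edgeR adjusted p = 4.17e-09), −1.66 ± 0.11 in acute against parental (edgeR adjusted p = 1.30e-08) and −0.03 ± 0.09 in early against parental cells (edgeR adjusted p = 0.831). SLC43A1, the gene of LAT3, averaged 71.2 ± 3.14 CPM in early (n = 8) and 40.6 ± 6.84 CPM in acute cells (n = 3), against 65.1 ± 3.24 CPM in parental cells (n = 3). It was higher in early than in acute cells by 0.81 ± 0.09 (edgeR adjusted p = 1.68e-06), and in acute against parental cells the log2 fold change was −0.68 ± 0.10 (edgeR adjusted p = 4.56e-05).

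Among the proton-coupled carriers, SLC36A4 (ENSG00000180773), a high-affinity carrier of tryptophan and proline, was the only well expressed member that was lowest in acute cells and higher in early than in parental cells at the threshold. It had 23.2, 22.2, 20.6 and 16.9 CPM with FGF2, 20.0, 21.6, 16.8 and 20.5 CPM with FL, 2.59, 3.20 and 5.35 CPM in acute libraries, and 12.2, 13.0 and 15.01 CPM in parental libraries. All early flasks were above all parental libraries, which were above all acute libraries. Early against acute cells gave 2.45 ± 0.20 (edgeR adjusted p = 9.21e-08), and acute against parental cells −1.86 ± 0.22 (edgeR adjusted p = 4.15e-06). The early against parental value of 0.59 ± 0.17 (edgeR adjusted p = 0.0197) lost its call without parental replicate 1 (adjusted p = 0.0983) or parental replicate 2 (0.0864). SLC36A1, a lysosomal carrier also called PAT1, averaged 34.6 ± 4.40 CPM in early, 41.6 ± 6.29 CPM in acute and 47.5 ± 3.33 CPM in parental cells. It fell in early against parental cells (−0.46 ± 0.11, edgeR adjusted p = 0.00847), and the adjusted p was 0.0503 without parental replicate 1.

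Only 6 of the 19 SLC6 carriers were expressed, and SLC6A6 alone passed 8 CPM. SLC6A6, the taurine carrier, averaged 51.6 ± 4.98 CPM in early, 47.1 ± 7.51 CPM in acute and 60.2 ± 4.92 CPM in parental cells. Its call in acute against parental cells (−0.35 ± 0.12, edgeR adjusted p = 0.0232) was lost without parental replicate 1 or 2 or acute replicate 2 or 3, with adjusted p between 0.0610 and 0.0906, with scaling to total counts (0.0923) and with the acute library without ligand alone (0.462). SLC6A9, the glycine carrier GlyT1, had 1.37, 1.55, 1.27 and 1.41 CPM with FGF2, 2.31, 0.883, 1.56 and 1.16 CPM with FL, 0.0328, 0.172 and 0.0385 CPM in acute libraries, and 4.12, 3.14 and 4.28 CPM in parental libraries. Acute, early and parental libraries did not overlap, with the acute libraries near 0, while the FGF2 and FL flasks overlapped. It was called higher in early than in acute cells (edgeR adjusted p = 2.96e-06), and lower than in parental cells in early (edgeR adjusted p = 0.00245) and in acute cells (edgeR adjusted p = 3.44e-07). SLC6A9 passed the filter only through the arms where it is higher, so its calls say little beyond these values.

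The creatine carrier gene SLC6A8 lay at 1.74 to 7.18 CPM and was not called, and reads could have passed between it and its copy SLC6A10P, which stayed at or below 0.270 CPM. SLC6A4, SLC6A16 and SLC6A20 did not pass 1.57 CPM in any library. SLC6A16 and the light chain gene SLC7A9 were called higher in acute than in parental cells (edgeR adjusted p = 0.0276 and 0.00277), at 0.275 to 1.08 CPM and 0.328 to 0.693 CPM in acute libraries, against 0.108 to 0.259 CPM and 0.0322 to 0.0739 CPM in parental libraries. Both, and the glutamate carrier gene SLC1A6, were called lower in early than in acute cells (edgeR adjusted p = 0.0152, 0.0135 and 0.0200). SLC6A16 and SLC7A9 lie near the filter on low counts and are highest in the acute arm, with 0.0998 to 0.379 CPM and 0.0631 to 0.371 CPM in early flasks, so these calls too say little beyond the values. Against parental cells the SLC6A16 call was lost with DESeq2 (0.0558), limma-voom (0.0528) and no filter (0.0504), without parental replicate 1 (0.0579) or 3 (0.108), and without acute replicate 3 (0.255), where the log2 fold change was 0.746 in place of 1.53. With the acute library without ligand alone it was also lost (0.251), as was that of SLC7A9 (0.0524). The early against acute calls of SLC6A16 and SLC7A9 were lost without acute replicate 3 (adjusted p = 0.334 and 0.108) and with the acute library without ligand alone (0.322 and 0.313). That of SLC1A6 was lost without acute replicate 1 (0.217) and with no filter (0.0561).

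With FGF2, 2 of the 31 members were higher and none lower than with FL, against 4.0% and 9.56% of all genes, and at an unadjusted p below 0.05 there were 5 higher and 1 lower. None was lower by DESeq2 or limma-voom either. SLC7A6 averaged 117 ± 1.73 CPM with FGF2 (n = 4), against 84.8 ± 15.9 CPM with FL (n = 4), a log2 fold change of 0.46 ± 0.11 (edgeR adjusted p = 0.0107), and its arms did not overlap. SLC38A1 averaged 174 ± 11.7 CPM with FGF2, against 144 ± 10.9 CPM with FL, a log2 fold change of 0.26 ± 0.07 (edgeR adjusted p = 0.0244). Its call was lost without FGF2 early replicate 2 or replicate 4, or FL early replicate 1 or replicate 3, with adjusted p between 0.0533 and 0.0842. SLC3A2 averaged 200 ± 3.69 CPM with FGF2, against 179 ± 10.4 CPM with FL, without overlap (0.16 ± 0.05). It missed the threshold with edgeR (adjusted p = 0.0521) and passed it with DESeq2 (adjusted p = 0.00874), with total counts (0.0168), with a minimum mean of 1 CPM (0.0343), and without FL early replicate 4 (0.0101) or acute replicate 1 (0.0391). SLC38A5 lay at 74.3 to 88.9 CPM with FGF2, against 61.5 to 70.3 CPM with FL, without overlap (0.31 ± 0.12, edgeR adjusted p = 0.111). It passed with total counts (0.0453), with only the arms compared (0.0281) and without acute replicate 1 (0.00822). Without acute replicate 1, SLC7A1 passed as well (0.0468), and without FL early replicate 1, SLC43A2 did (0.0333). SLC7A11 had the largest value, −1.27 ± 0.44, and did not pass the test (edgeR adjusted p = 0.0705). Left-out libraries brought it past the threshold, with −1.55 and adjusted p = 0.0154 without FL early replicate 1, −1.38 and 0.0490 without FL early replicate 4, and −1.27 and 0.0356 without acute replicate 1. The member counts moved between 1 and 5 higher and between 0 and 1 lower as single libraries were left out, with 1 higher without FGF2 early replicate 2, FGF2 early replicate 4 or FL early replicate 3, and 5 higher without acute replicate 1. The count of 1 lower came without FL early replicate 1, FL early replicate 4 or acute replicate 1. Scaled to total counts alone, 4 members were higher and none lower, and over all genes 1002 were higher and 1248 lower, against 630 and 1507 with TMM scaling.

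The acute arm held 1 library for each ligand state, so the ligand values have no replicate check and no test. Among the 12 members given in full, both ligand libraries were nearer to the parental mean than the library without ligand in 9. Both were above the library without ligand in 8, and both below it in SLC38A2, SLC43A2 and SLC7A11. The 12 were partly chosen for their change, and no share over all genes was taken, so these counts have no background. Some differences were small, as for SLC3A2, with 95.5 CPM with FGF2 and 91.5 CPM with FL, against 91.1 CPM without ligand. SLC1A5 had 135 CPM with FGF2 and 118 CPM with FL, against 88.3 CPM without ligand, and SLC7A1 had 68.1 and 60.8 CPM, against 40.5 CPM. SLC43A2, the member that was high in acute cells, had 67.2 and 73.1 CPM, against 105 CPM without ligand. SLC7A11 had 1.89 and 2.66 CPM with the ligands, against 7.71 CPM without, and so lay further from the parental mean of 26.9 CPM with a ligand. Every one of the 11 members that were low in acute cells was below its lowest parental library in both ligand libraries. These libraries are part of the acute arm by which the 11 were called low, so this is no separate result on the ligands.

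**Figure D5:**
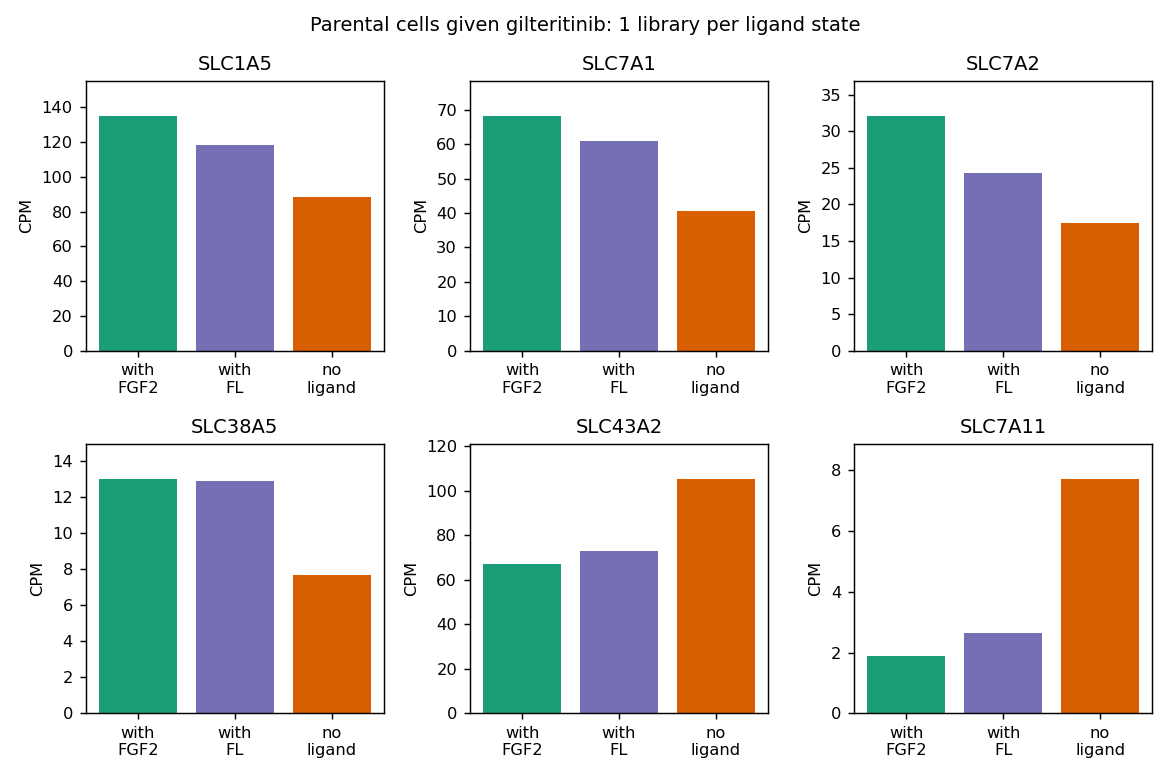
CPM in the 3 acute libraries, with FGF2, with FL and without ligand, for 6 members; each bar is 1 library and there is no error. SLC1A5, SLC7A1, SLC7A2 and SLC38A5 are higher with either ligand (SLC38A5 at 13.0 and 12.9 against 7.67 CPM without), and SLC43A2 and SLC7A11 lower.

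Several of these genes are textbook targets of ATF4 or of E-box factors such as MYC and TFEB, so promoter sequences are shown as a description. Whether any such factor acted on these genes in these cells was not tested. Windows of 300 bases (250 before to 50 after a start, GRCh38.p14) came from the RefSeq promoter set used here. It held them for 27 of the 31 expressed members and for 9 of the 12 given in full. The set used had no window for SLC43A3, SLC7A2 and SLC7A11, which does not mean that RefSeq lacks their starts. The letters TGATGNAA, the core of the element bound by CEBP-ATF dimers, were searched on both strands, as were the letters CACGTG, the E-box. The motifs can share a TG where they meet, and no match printed here does. TGATGNAA occurred in a window of 6 of the 27 members, against 4.46% of all genes and 3.62% of all windows, and 4 of the 6 were among the 9: SLC1A5, SLC38A1, SLC3A2 and SLC7A1. CACGTG occurred in a window of 8 of the 27, against 8.77% of all genes and 7.26% of windows, and of the 9 in SLC1A5, SLC38A5 and SLC7A5. A gene was counted if any of its windows held the letters, so more windows give more places for a match. SLC1A5, SLC3A2 and SLC43A2 had 3 windows each and SLC7A5 and SLC7A1 had 1, while all 27305 genes had 35116 windows. The shares of all genes were not limited to expressed genes and not matched for the number of windows. A match describes letters, not binding. Stretches with each match are printed 5′ to 3′ on the gene's strand, with the match in capitals, first for TGATGNAA and then for CACGTG.
SLC3A2, chr11:62881719-62881748, + strand: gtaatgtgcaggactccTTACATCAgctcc
SLC38A1, chr12:46266502-46266531, - strand: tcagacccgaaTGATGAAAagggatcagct
SLC7A1, chr13:29595663-29595692, - strand: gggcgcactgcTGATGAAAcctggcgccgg
SLC1A5, chr19:46784868-46784947, - strand: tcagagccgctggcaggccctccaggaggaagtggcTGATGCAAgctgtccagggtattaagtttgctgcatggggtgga
SLC7A5, chr16:87869595-87869674, - strand: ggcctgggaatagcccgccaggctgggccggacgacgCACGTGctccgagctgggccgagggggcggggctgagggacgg
SLC1A5, chr19:46787301-46787380, - strand: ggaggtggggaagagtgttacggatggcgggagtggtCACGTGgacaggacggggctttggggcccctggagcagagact
SLC38A5, chrX:48470424-48470503, - strand: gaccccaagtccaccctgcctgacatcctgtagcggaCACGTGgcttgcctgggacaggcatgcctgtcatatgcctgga
In SLC1A5 the matches lie in windows of different start sites. The 6 genes printed come from the members given in full, which were partly chosen for their change, and all 6 were lower in acute than in parental cells. The other members with a match were mixed in that comparison. SLC1A3 and SLC1A4 with TGATGNAA, and SLC36A1 and SLC7A7 with CACGTG, were not called, while with CACGTG SLC43A1 was lower and SLC38A7 and SLC6A16 were higher. The windows of SLC38A2 and SLC36A4, which were lower, and of SLC43A2, which was higher, hold neither motif.

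Other genes of amino acid use were read from lists by function, with the same backgrounds as above. Of 15 expressed enzymes that make or use glutamine and glutamate, 12 were higher and 1 lower in early than in acute cells, with a median log2 fold change of 0.99, and 1 was higher and 13 lower in acute than in parental cells, with a median of −1.07. The alanine transaminase gene GPT2 had 2.92 ± 0.09 in early against acute cells (edgeR adjusted p = 6.57e-12) and the asparagine synthetase gene ASNS 1.39 ± 0.10 (3.75e-08). The enzyme called lower over both early arms was OAT, ornithine aminotransferase (−1.08, edgeR adjusted p = 0.0210). It stood at 0.756 to 4.59 CPM in FGF2 early flasks and at 27.2, 38.9, 31.7 and 9.03 CPM in FL early flasks, against 17.4 to 18.2 CPM in acute libraries, so 3 of 4 FL flasks lay above the acute level. Its call was lost when any acute library was left out, and 2 enzymes were lower without FL early replicate 4. Of 8 branched-chain amino acid enzymes, 6 were higher and 1 lower in early than in acute cells, led by the transaminase gene BCAT1 (1.62 ± 0.12, edgeR adjusted p = 2.72e-08), and none was higher and 5 lower in acute than in parental cells. In that comparison edgeR gave 1 higher at an unadjusted p below 0.05, DESeq2 gave none and limma-voom 1. The first count was 1 without FL early replicate 4, parental replicate 1, parental replicate 3 or acute replicate 1.

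Regulators and partners of amino acid supply were mixed. Of 13 amino acid response regulators, 7 were higher and 5 lower in early than in acute cells, with the pseudokinase gene TRIB3 at 1.41 ± 0.21 (edgeR adjusted p = 3.35e-05) and the phosphatase subunit gene PPP1R15A at −0.91 ± 0.07 (5.62e-08). In acute against parental cells 3 were higher and 7 lower, and the 3 became 5 without FL early replicate 4. Of 22 genes of amino acid sensing at the lysosome, 2 were higher and 11 lower in early than in acute cells, and the 2 became 4 without the first replicate of either early arm. In acute against parental cells 8 were higher and 4 lower, among them TFEB, which encodes a transcription factor of lysosomal genes (1.22 ± 0.16, edgeR adjusted p = 1.12e-05), and FLCN, which encodes folliculin, a regulator of TFEB (1.03 ± 0.11, edgeR adjusted p = 1.58e-06). Among 12 glutathione genes, 6 were higher and 4 lower in early than in acute cells, and 4 were higher and 6 lower in acute than in parental cells. The glutathione-degrading enzyme gene CHAC1 had 3.38 ± 0.24 in early against acute cells (edgeR adjusted p = 2.62e-08). Of 14 expressed amino acid carriers of other families, 5 were higher and 7 lower in early than in acute cells, led by SFXN1, the mitochondrial serine carrier (2.09 ± 0.13, edgeR adjusted p = 6.63e-09), and 4 were higher and 4 lower in acute than in parental cells.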

How the data were processed

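RNA-seq was done on 14 libraries, with stranded poly(A) kits per the labels' protocols. Estimated counts for each Ensembl gene and library were deposited, made by the authors with kallisto for GRCh37, per the submitters' processing notes, which give no version; how transcripts were summed to genes, and whether counts were rescaled by length, is not given in the sources used here. Names, gene types and transcript lengths came from GENCODE 29, a GRCh38 annotation, which named 33353 of 39293 identifiers, so no gene coordinates are given. Identifiers without a name stayed in the fit.

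Counts were rounded to whole numbers and filtered with filterByExpr (minimum count 10, minimum total 15), which left 15756 genes. All 14 libraries, in 4 arms, were fitted together by edgeR's robust quasi-likelihood method with TMM library sizes and Benjamini-Hochberg adjustment over all genes at 0.05 (edgeR 4.0.16, R 4.3.3). "Early" is the mean of both early arms. Values are CPM from TMM library sizes, mean ± SD, and log2 fold changes ± SE. Per-kilobase levels divide by the longest principal transcript. Ratios were tested with exact permutation in scipy 1.17.1. The members and lists were chosen with earlier results of these data known. Members given in full average at least 8 CPM and changed at least 2-fold in a call, besides 7 taken whatever their values (SLC3A2, SLC7A5, SLC7A11, SLC1A5, SLC7A1, SLC38A1, SLC38A2); from other lists, at most 3 genes with the smallest adjusted p were named, and OAT after its value was seen. Some genes of these lists are not reported here. Alternatives changed the scaling, filter, test (DESeq2 1.42.0, limma-voom with limma 3.58.1), libraries in the fit, acute arm and replicate block, and left out each library; scripts were tested on simulated counts.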

Additional observations from a re-analysis of the deposited data

Results flagged for a closer look

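Dixon's test on each group of 4 flasks marked 4 values among 64 groups of values, where chance marks about 1 in 20 groups. SLC3A2 stood at 194 CPM in FL early replicate 4, with the other FL flasks between 173 and 175 CPM. SLC36A1 stood at 30.5 CPM in the same flask, with the others between 35.7 and 36.05 CPM. SLC38A9 stood at 21.6 CPM in FGF2 early replicate 4, with the other FGF2 flasks between 25.6 and 26.2 CPM. SLC7A9 stood at 0.371 CPM in FGF2 early replicate 2, with the others between 0.0689 and 0.0899 CPM.

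By edgeR's test of FGF2 early against FL early, the change against a shared control was called different between the lines for 2 of the 31 members. These were SLC7A6 by 0.461 and SLC38A1 by 0.264 on the log2 scale, both higher with FGF2 in 4 of 4 flasks. Over all genes 4.0% were called higher and 9.56% lower. The SLC38A1 call was lost when any of 4 single flasks was left out (edgeR adjusted p between 0.0533 and 0.0842).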

How the results depend on the processing

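Leaving out single libraries gave 14 to 15 members higher and 4 to 6 lower in early against acute cells, 1 to 3 and 4 to 8 in early against parental cells, 3 to 6 and 13 to 15 in acute against parental cells, and 1 to 5 and 0 to 1 in FGF2 early against FL early cells. Without FL early replicates 1 and 4 together, early against parental cells had 4 members higher, and FGF2 early against FL early cells had 4 higher and 3 lower. Acute against parental cells had 3 members higher with no filter on low counts or with a minimum mean of 1 CPM, and 1 with only the arms compared. Scaling to total counts alone gave 4 members higher with FGF2 than with FL. The cause of these moves was not tested. The fold changes of the 12 members given in full kept direction and call in both comparisons with the acute arm under every alternative run, except SLC7A11 in early against acute cells with the acute library without ligand alone (1.25). The 12 were partly chosen for their change in these data, so this does not extend to the other members. Calls of SLC38A7, SLC38A10 and SLC6A6 in these comparisons were lost under several alternatives, as given above.

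Changes of direction came only for 14 uncalled values. In early against parental cells SLC43A3 was 0.0225 with total counts, 0.00574 with the replicate block, −0.0706 to 0.00709 as single libraries were left out (above 0 without FL early replicate 4) and 0.0585 without FL early replicates 1 and 4, where SLC7A2 was 0.0231. In FGF2 early against FL early cells leaving out single libraries gave −0.0153 to 0.0969 for SLC7A5 (below 0 without FGF2 early replicate 1 or 2), −0.0043 to 0.107 for SLC38A2 (below 0 without FL early replicate 3) and −0.0792 to 0.119 for SLC7A2 (below 0 without FGF2 early replicate 2, FL early replicate 1 or FL early replicate 4). Without FL early replicates 1 and 4 together these were −0.00327, −0.0219 and −0.178.

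Replicate numbers did not pair the samples: the correlation of deviations between libraries with the same number ran between −0.0939 and 0.0658 over 10 pairs. With the number as a replicate block, 3 members were higher and 8 lower in early against parental cells, and 3 higher and none lower in FGF2 early against FL early cells; SLC7A1 passed in the first (−0.164, adjusted p = 0.0481) and SLC38A5 in the second (0.313, 0.0289). The acute arm has 1 library per ligand state, and members under 1 CPM rest on few counts, which limits what depth can show for them. The lists of related genes and the ratios were put through the same alternatives after the data were seen.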
